A study of Mus musculus with 4 samples.

Results

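The epicardial cells of the E10.5 (embryonic day) mouse heart were examined in 4 single-cell RNA libraries made with 10x Genomics droplets. Transcripts were counted by their unique molecular identifiers (UMIs) and assigned to cells by barcode. Libraries 5 and 7 came from control embryos homozygous for a floxed *Tie2* allele (*Tie2* f/f), and libraries 6 and 8 from *Nfatc1Cre;Tie2* f/f embryos (*Tie2-cko*), in which Cre knocked into the *Nfatc1* locus removes *Tie2* (gene symbol *Tek*) from the endocardium. All embryos therefore carried the floxed allele, only the *Tie2-cko* embryos carried Cre, and the mice were of mixed strain (129 and C57/BL6) and of both sexes. The whole cardiogenic region was dissected, so tissue next to the heart could enter a library, and by the methods 2 hearts of each genotype came from the same litter, and matched control and mutant libraries shared a sequencing lane. The sources used here do not say which heart each library holds or which control library was matched with which *Tie2-cko* library. P-values therefore measure the spread between these 4 libraries, which may be technical in part.

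Epicardial cells were selected by measured values among the 30415 of 50436 deposited barcodes that held at least 1500 genes and at most 10% mitochondrial UMIs. A barcode had to hold at least 3 UMIs per 10000 of *Upk3b* and *Upk1b* together and at least 1 UMI of *Tbx18*, *Tcf21* or *Wt1*. Barcodes were left out with 15 or more UMIs per 10000 of *Tnnt2*, with 500 or more of *Hbb-y*, with 2 or more of *Pecam1*, *Cdh5* and *Ecscr* together, or with both *Dkk2* and *Mab21l2* detected. This gave 1667 cells, 5.48% of the kept barcodes. Of these, 338 came from control library 5 and 444 from control library 7, and 194 and 691 from *Tie2-cko* libraries 6 and 8. The median member held 20551.5, 36288, 17719 and 19739 UMIs in libraries 5, 6, 7 and 8, so library 6 had the deepest but fewest cells. Between 29 and 62 barcodes recurred in any pair of libraries, and no epicardial barcode did.

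The epicardium is the mesothelial sheet that covers the heart. Its cells come from the proepicardium, a cluster of progenitors near the venous pole, spread over the myocardium and later give rise to fibroblasts and mural cells through epithelial-to-mesenchymal transition (EMT). They are known as a source of retinoic acid and of growth factors for the myocardium, and for the transcription factors WT1, TBX18 and TCF21.

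The label was read beside marker genes that took no part in the selection. They were listed with earlier results of these data known, so they give no independent check. Of 20 such epicardial markers, 18 were higher in the epicardial cells than in all other kept barcodes in each of the 4 libraries. At least 2 times higher were 16, and 1 was lower in each library. No share over all genes is set beside these counts. These comparisons describe how the cells were chosen and were not tested. *Dcn*, which encodes the matrix proteoglycan decorin, was at 3.77, 3.55, 5.00 and 5.53 UMIs per 10000 in libraries 5, 6, 7 and 8, against a mean of 0.0876 in all other barcodes. *Apela*, encoding a peptide ligand of the apelin receptor, was at 1.63, 1.55, 2.44 and 2.27 against 0.0513. Both genes were thus clearly higher in the epicardial cells in each library, and lower in libraries 5 and 6 than in libraries 7 and 8.

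Ranked by the lowest ratio over the libraries to all other barcodes, the leading 20 genes were *Upk3b*, *Upk1b*, *Kcne1l*, *Lrrn4*, *Dcn*, *Hpgd*, *Tbx18*, *Apela*, *Wt1*, *Aplp1*, *Tcf21*, *Stk26*, *Krt7*, *S100a6*, *Lsp1*, *Krt19*, *Ezr*, *Colec12*, *Nrk* and *Itga4*. Several belong to an epithelial sheet, among them the keratin genes *Krt7* and *Krt19* and *Ezr*, whose product ezrin links the cortex to the apical membrane. *Itga4* encodes the α4 integrin, a receptor for VCAM1. *Upk3b*, *Upk1b*, *Tbx18*, *Wt1* and *Tcf21* chose the cells, so that their excess was set by the selection. For most of the 20 genes the nearest other class was the cells that hold both *Dkk2* and *Mab21l2*, with *Dcn* at a mean of 0.416 UMIs per 10000 against 4.46 ± 0.959 (SD over 4 libraries) in the epicardial cells and 0.0171 in cardiomyocytes (CMs, here barcodes with at least 15 UMIs per 10000 of *Tnnt2*). That class held 129, 175, 20 and 13 cells in libraries 5, 6, 7 and 8. Unlike the other classes it had no upper limit on *Upk3b* and *Upk1b*. It included 19, 36, 3 and 2 barcodes that met every other condition for epicardial cells, so its nearness was partly set by its definition.

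**Figure D1:**
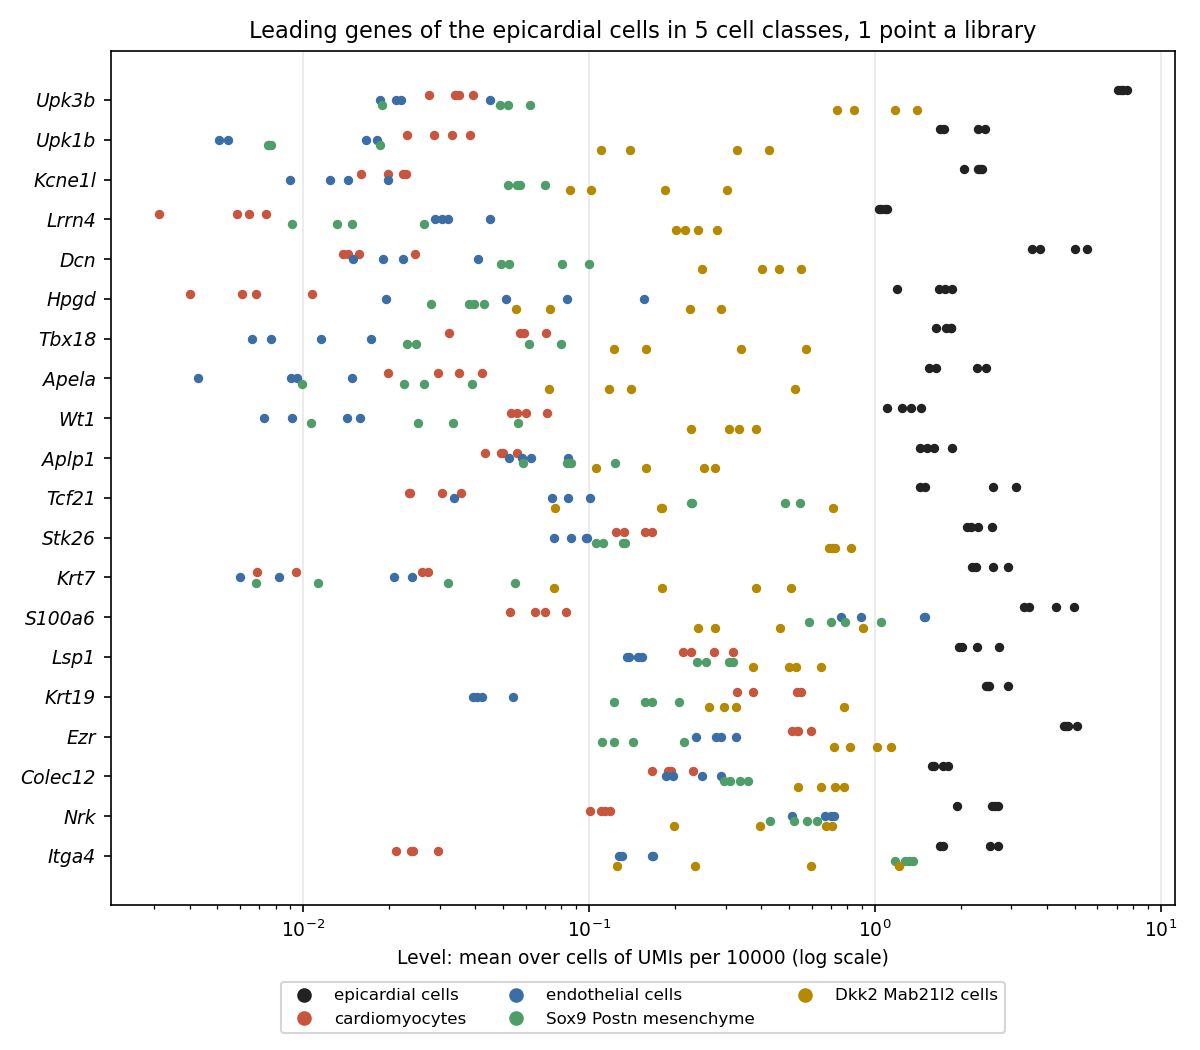
Levels of the 20 leading genes, as the mean over cells of UMIs per 10000 on a log axis, in epicardial cells and 4 other cell classes, with 1 point for each library. Each gene is highest in the epicardial cells, and the *Dkk2 Mab21l2* cells come closest for most genes, as for *Dcn* with a mean of 0.416 against 4.46 (*Upk3b*, *Upk1b*, *Tbx18*, *Wt1* and *Tcf21* were used to choose the cells).

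At the limits of the selection, 16, 10, 9 and 27 members of libraries 5, 6, 7 and 8 held 3 to 3.5 UMIs per 10000 of *Upk3b* and *Upk1b*, and 18, 15, 9 and 21 otherwise accepted barcodes held 2.5 to 3. *Dcn* was at 1.55, 1.12, 2.12 and 2.86 UMIs per 10000 just inside the limit and at 1.28, 1.05, 1.70 and 2.51 just outside it. The limit therefore fell within a continuous range of levels. The exclusion of cells with both *Dkk2* and *Mab21l2* removed 19 and 36 barcodes in libraries 5 and 6 but 4 and 2 in libraries 7 and 8.

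Markers of macrophages, platelets, epithelium and endothelium were low, whereas those of red cells and mesenchyme were not. The 9 globin and red cell genes summed to 59.2, 12.9, 23.3 and 8.41 UMIs per 10000 in libraries 5, 6, 7 and 8, *Hbb-y* being the most abundant. The 5 macrophage markers summed to between 0.0261 and 0.0537 UMIs per 10000 in the 4 libraries, the 4 platelet lineage markers to at most 0.0313 and the 5 epithelial markers to at most 0.122, with *Cdh1* at a mean of 0.00156. The 9 endothelial markers, of which the selection capped *Pecam1*, *Cdh5* and *Ecscr*, summed to 0.992, 0.813, 0.88 and 0.921, of which *Egfl7* made up most (0.668, 0.642, 0.603 and 0.616), while *Emcn* was at a mean of 0.015 against 3.27 in endothelial cells. No gene of these lists was at 0 in all 4 libraries, and the part of free RNA from lysed cells in these sums was not tested. The 5 hepatic markers were higher in libraries 5 and 6, at 0.286 and 0.265, than in libraries 7 and 8, at 0.019 and 0.0965, *Afp* being the most abundant in libraries 5, 6 and 8 and *Apoa2* in library 7. The 8 mesenchymal markers summed to 5.96, 6.28, 6.57 and 6.32, *Fbln2* being the most abundant, against a mean of 3.43 in endothelial cells and 19.4 in mesenchyme that held *Sox9* and *Postn*. The 5 neural markers summed to 0.868, 1.01, 0.771 and 0.754, nearly all of it *Tubb3*, against 0.167 in CMs and 1.18 in endothelial cells.

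*Aldh1a2* and *Aldh1a1*, genes of retinoic acid synthesis, were higher in the epicardial cells, whereas most other genes of that pathway were not. *Aldh1a2*, encoding the main embryonic retinaldehyde dehydrogenase, was at 0.885, 0.943, 0.865 and 0.983 UMIs per 10000, against 0.0111 in CMs, 0.00874 in endothelial cells and 0.208 in the *Dkk2 Mab21l2* cells. *Aldh1a1* was at 0.95, 0.816, 0.901 and 0.85 against 0.0236 in all other barcodes. These were the 2 genes among the 19 of the pathway that were at least 2 times higher in each library, while *Cyp26b1*, whose product breaks retinoic acid down, was at 0.00447 against 0.31 in endothelial cells. Summed over the 19 genes, the *Dkk2 Mab21l2* cells were higher, at 12.1 against 5.62 to 6.48 in the epicardial cells, with *Crabp1*, encoding a retinoic acid-binding protein, at 6.52 against 0.229. The *Dkk2 Mab21l2* values are means over libraries, with only 20 and 13 such cells in libraries 7 and 8.

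Among 56 genes of growth factors and their receptors, 9 were at least 2 times higher than in all other barcodes in each library, and 8 were at 0.5 times or less. The matching share over all genes is not given here, so these counts and those of the other lists describe the lists only. *Fgf18* was at 0.322, 0.359, 0.391 and 0.325 UMIs per 10000 against 0.00757 elsewhere, a level that varied little between libraries. *Sema3d*, a secreted guidance factor, was at 0.504, 0.57, 0.582 and 0.681 against 0.036. *Egfr* was at 0.147 ± 0.00736 (SD, n = 4 libraries) against 0.011, and *Ptn*, encoding the heparin-binding factor pleiotrophin, at 14.3 ± 0.930 against 2.51, but the *Dkk2 Mab21l2* cells were at 16.5. The others were *Apela*, *Igfbp3*, *Spry1*, *Nrp1* and *Fgf9*. *Fgf9*, a mitogen for myocardium, was at 0.133 ± 0.0187, against 0.0656 in CMs, and thus set the epicardial cells apart by less. Of the Wnt pathway, *Rspo1*, encoding a secreted enhancer of Wnt signaling, was at 1.12, 1.21, 0.789 and 0.739 against 0.0801, and *Wnt5b* at 0.310 ± 0.0374 against 0.0376.

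Genes of the matrix and of adhesion and polarity went both ways. Of 51 matrix genes, 12 were at least 2 times higher and 3 at 0.5 times or less in each library, and of 26 adhesion and polarity genes 6 were at least 2 times higher and 6 at 0.5 times or less. The higher matrix genes included *Sparc*, at 19 ± 1.25 UMIs per 10000 against 5.92, *Fbln2*, at 2.35 ± 0.185 against 0.397, and *Col6a1*, at 0.284 ± 0.0457 against 0.0404. The higher adhesion and polarity genes were *Cdh11*, *Itga4*, *Ezr*, *Podxl*, *Crb2* and *Pard6b*. The apical polarity genes *Crb2* and *Pard6b* were at 0.296 ± 0.0518 against 0.0396 and at 0.255 ± 0.0572 against 0.0383. Of 24 EMT and mesenchymal genes, 4 were at least 2 times higher in each library, namely *Fn1*, *Col1a1*, *Col1a2* and *S100a4*, and 5 were at 0.5 times or less. *Fn1*, encoding fibronectin, was at 5.39 ± 0.146 against 2.06. The EMT transcription factor gene *Twist1* was at 0.637 ± 0.0621 against 7.44 in the mesenchyme that held *Sox9* and *Postn*, and *Snai2* at 0.228 ± 0.0452 against 0.531. The epicardial cells were lower than that mesenchyme for both of these genes.

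*Myl7*, the gene of the atrial regulatory myosin light chain, was the most abundant CM marker in the epicardial cells, although *Tnnt2* was limited by the selection. It was at 31.0, 21.9, 30.9 and 31.7 UMIs per 10000 in libraries 5, 6, 7 and 8 (177, 161, 167 and 183 in CMs), against 5.24, 3.39, 7.22 and 8.36 in endothelial cells. *Actc1*, encoding cardiac α-actin, was at 4.6, 1.96, 5.24 and 4.76 against 4.95, 3.69, 6.71 and 6.57. The epicardial cells thus exceeded the endothelial cells for *Myl7* in each library and lay below them for *Actc1*. The level of *Myl7* divided by that of *Actc1* was 6.75, 11.2, 5.90 and 6.66 in epicardial cells and 1.15, 1.04, 1.10 and 1.31 in CMs. The highest value in any other class and library was 2.0, in the 13 *Dkk2 Mab21l2* cells of library 8. In endothelial cells (0.919 to 1.27) and in mesenchyme (0.811 to 1.01) the ratio was near that of the CMs. *Myl7* did not pass the test between genotypes (log2 fold change -0.17 ± 0.18 (SE), edgeR adjusted p = 1.00).

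**Figure D2:**
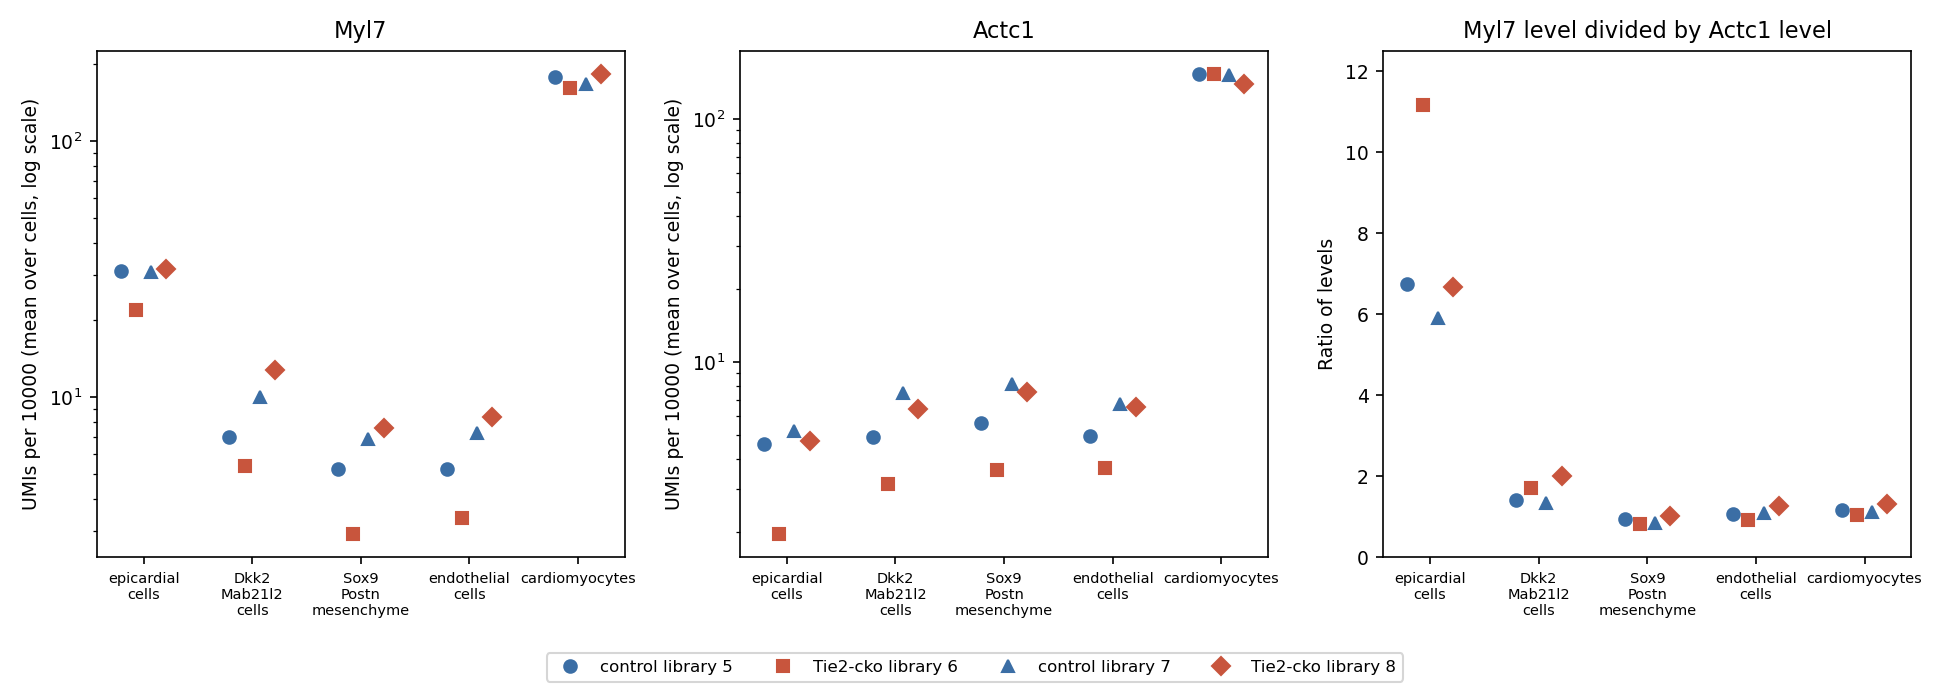
*Myl7* and *Actc1* levels (mean over cells of UMIs per 10000, log axes) and the ratio of the *Myl7* level to the *Actc1* level in 5 cell classes, with 1 point for each library. The ratio lies between 5.90 and 11.2 in epicardial cells and at 2.0 or below elsewhere.

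Among the members themselves, the 20 genes whose counts varied most beyond sampling were ranked by the lowest over the libraries of the variance of Pearson residuals. *Malat1*, a nuclear non-coding RNA, ranked first. Genes of S phase and mitosis included *Hist1h2ae*, *Hist1h1b*, *Hist1h2ap*, *Top2a* and *Ube2c*. The muscle genes were *Myl7*, *Ttn*, *Myl4*, *Acta2*, *Tagln* and *Actc1*. The others were *S100a6*, *Lgals1*, *Tmsb4x*, which encodes the actin-binding thymosin β4, the imprinted genes *Cdkn1c* and *H19*, the mitochondrial *mt-Co3* and *mt-Atp6*, and *Gm42418*. *S100a6*, for a calcium-binding protein, ranged from a 10th percentile of 0, 0, 0.268 and 0 UMIs per 10000 to a 90th percentile of 7.98, 8.99, 9.38 and 11.7 in libraries 5, 6, 7 and 8. Correlations across cells within a library, which share depth and composition, were taken on the logarithm of 1 plus the UMIs per 10000. *S100a6* and *Lgals1* correlated at 0.433, 0.535, 0.324 and 0.417, and *S100a6* and *Tmsb4x* at 0.496, 0.601, 0.253 and 0.419. *Top2a* and *Ube2c* correlated at 0.671 to 0.694. These correlations describe cells of 1 source each and carry no test.

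Genes of the cell cycle phases were more abundant in epicardial cells than in CMs in each library. With each cell thinned to 5000 UMIs, which left out 0, 1, 2 and 7 shallower members, the 42 S phase genes gave 16.9, 18.3, 18.0 and 16.6 UMIs a cell, against 8.83, 9.54, 8.67 and 8.47 in CMs. The 52 G2M phase genes gave 33.9, 32.3, 38.5 and 35.2 against 24.5, 26.9, 26.5 and 25.9, and the mesenchyme with *Sox9* and *Postn* gave 32.5, 36.5, 36.5 and 33.3, higher than the epicardial cells in library 6 and lower in the others. The 2 genotypes overlapped for S phase (exact two-sided permutation test over libraries, p = 1) and for G2M (exact permutation p = 0.667). Within the pairs of similar libraries described further on (5 with 6 and 7 with 8), G2M UMIs were lower in the *Tie2-cko* library of both pairs. With 2 libraries against 2, the smallest p this test can give is 0.333. *Mki67*, the proliferation marker, had a UMI in 43.5, 34.2, 38.2 and 32.0% of thinned members (69.2, 68.6, 62.4 and 58.9% unthinned), lower in both *Tie2-cko* libraries (exact permutation p = 0.333). In CMs the thinned shares were 27.7, 26.5, 21.9 and 21.4%, and no class free of cycling cells was available to give a background.

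Detection of the 3 transcription factors of the selection is given as a description, since each member had to hold at least 1 UMI of the 3. In thinned members *Tbx18* was detected in 53.3, 50.3, 51.6 and 55.4% of cells in libraries 5, 6, 7 and 8, *Tcf21* in 50.9, 48.2, 71.5 and 71.9% and *Wt1* in 39.1, 51.8, 47.3 and 45.5%. Unthinned shares lay between 80.9 and 96% for these genes, and in thinned endothelial cells *Wt1* was detected in at most 0.597%, *Tbx18* in at most 0.697% and *Tcf21* in at most 4.78%. The endothelial cells were shallower, with medians of 11779 to 27722 UMIs before thinning. *Tbx18* was therefore detected at similar shares throughout, whereas *Tcf21* was lower in libraries 5 and 6 than in libraries 7 and 8.

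The libraries fell into pairs that crossed the genotypes. Over the 1337 genes of sufficient level, the median absolute log2 ratio of epicardial levels was 0.105 between libraries 5 and 6 and 0.0786 between libraries 7 and 8, and 0.143 to 0.182 for the 4 other pairs. *Tcf21* was at 1.49 and 1.43 UMIs per 10000 in libraries 5 and 6 and at 2.59 and 3.11 in libraries 7 and 8, and *Upk1b* at 1.69 and 1.75 and at 2.42 and 2.29. In the opposite direction, *Itga4* was at 2.53 and 2.69 and at 1.69 and 1.73, *Krt8* at 3.77 and 3.66 and at 2.49 and 2.57, and the glycolysis gene *Eno1* at 9.65 and 10.0 and at 2.94 and 3.02. *Eno1* was also higher in libraries 5 and 6 in CMs, at 10.6 and 11 against 3.17 and 3.01. The labels give no batch or pairing, and what sets the pairs apart was not tested.

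**Figure D3:**
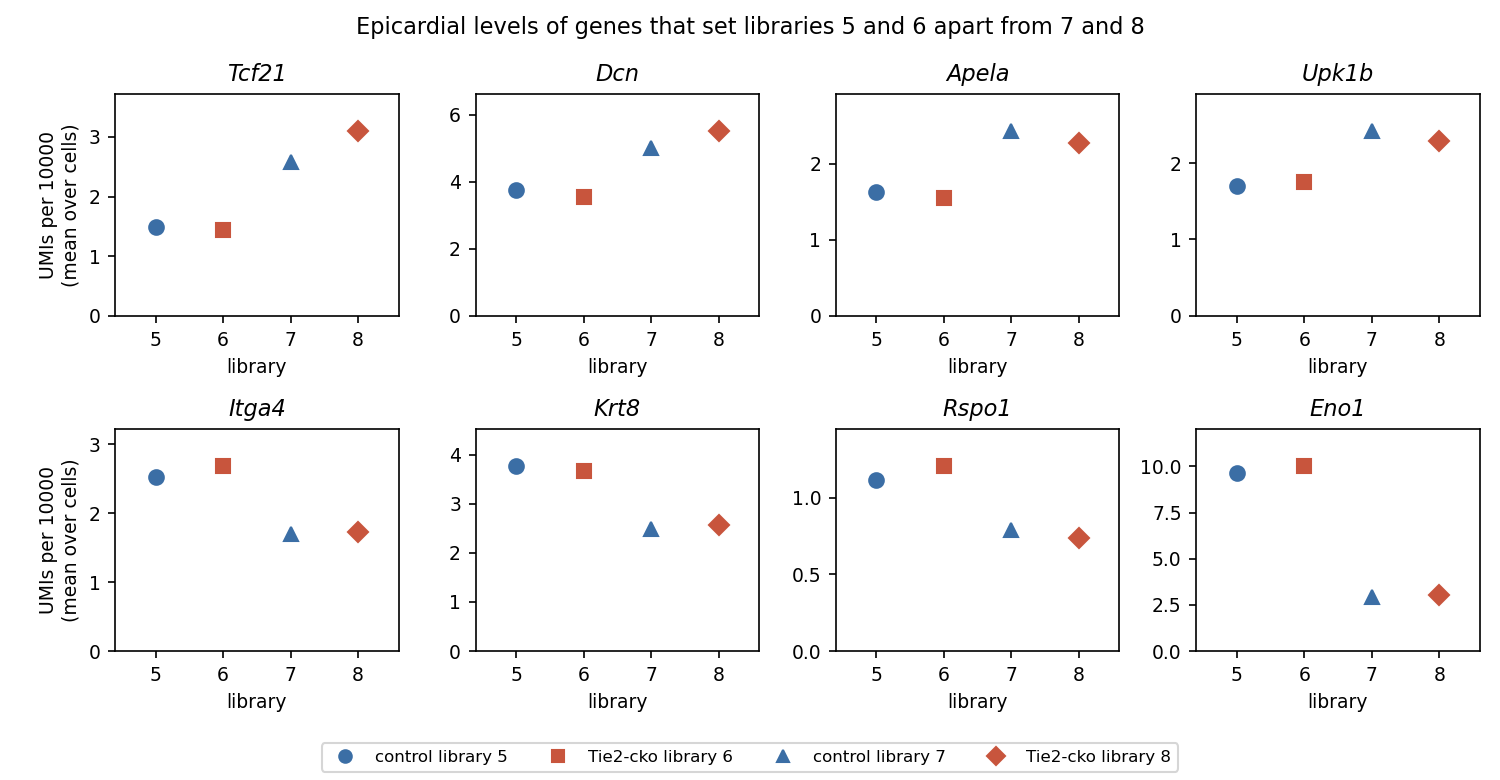
Epicardial levels (mean over cells of UMIs per 10000, axes from 0) of 8 genes in each library, with control libraries in blue and *Tie2-cko* libraries in red. *Tcf21*, *Dcn*, *Apela* and *Upk1b* are lower in libraries 5 and 6, and *Itga4*, *Krt8*, *Rspo1* and *Eno1* higher, whichever the genotype.

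A further difference between libraries was the sex of the embryos. In control library 5, 65 of the 338 members held a UMI of *Xist*, 201 held a UMI of a Y-linked gene and 11 held both. In libraries 6, 7 and 8, 2, 0 and 0 members held an *Xist* UMI, and 157, 321 and 507 held a Y-linked UMI. Library 5 was thus the only library with more than 2 *Xist* members, and it held cells with *Xist* beside cells with Y-linked UMIs, so that it was not of 1 sex. How many embryos it held was not tested.

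The first question of the genotype comparison was whether the epicardial share of the heart cells differed. Epicardial cells made up 3.75% (95% Wilson interval 3.37 to 4.16), 4.34% (3.78 to 4.98), 5.57% (5.09 to 6.1) and 7.71% (7.18 to 8.28) of the kept barcodes in libraries 5, 6, 7 and 8, intervals that cover counting error only. The control libraries (4.66 ± 1.29%, SD, n = 2) and the *Tie2-cko* libraries (6.03 ± 2.38%, n = 2) overlapped, and the difference of 1.36 percentage points was within the spread between libraries (exact two-sided permutation p = 0.667). Within the pairs read from the data, the share was higher in the *Tie2-cko* library of both (4.34 against 3.75% and 7.71 against 5.57%). The difference was -0.319 without library 8 and 3.05 without library 6. Leaving out the members with a UMI of *Barx1* or *Foxf1*, genes of the foregut mesenchyme described further on, gave shares of 3.06, 2.51, 5.29 and 7.13% and a difference of 0.645 (exact permutation p = 1). Library 6 then lay below library 5, so both pairs shared a direction only with these members included. Of CMs, endothelial cells, mesenchyme with *Sox9* and *Postn* and epicardial cells together, the shares were 6.81, 8.76, 7.41 and 9.83%, both *Tie2-cko* libraries lying above both control libraries at the smallest p the design allows (exact permutation p = 0.333). The share follows what was dissected and how cells survived dissociation, and these cannot be told apart from the number of cells in the heart.

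Gene expression of the epicardial cells differed between genotypes for 1 gene of 12096 tested (0.00827% called), by edgeR's quasi-likelihood test on UMIs summed per library with Benjamini-Hochberg adjustment, and 124 genes had an unadjusted p under 0.05. The gene was the adult β-globin gene *Hbb-bt*, which belongs to red blood cells. Its level was 0.524, 0.0832, 0.368 and 0.115 UMIs per 10000 in libraries 5, 6, 7 and 8, both *Tie2-cko* values being below both control values. It fell by 2.32 ± 0.187 (SE) on the log2 scale (edgeR adjusted p = 0.0381), and DESeq2 called the same single gene. The call was lost without members of over 2 times the median UMI number (-2.17, edgeR adjusted p = 0.882), under a stricter exclusion of other cell types (-2.12, adjusted p = 0.350) and without members holding *Barx1* or *Foxf1* (-2.29, adjusted p = 0.0521). The 8 globin and red cell genes tested that took no part in the selection all lay lower in both *Tie2-cko* libraries, beside 11.1% of all genes tested. *Hbb-y*, the embryonic β-globin gene, which the selection capped, was at 26.9, 5.44, 10.9 and 3.74 and is read by its levels only.

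The globin levels of the epicardial cells lay close to those of the CMs, a cell type not known to express these genes. *Hbb-y* was at 24.4, 6.42, 10.0 and 4.13 UMIs per 10000 in CMs of libraries 5, 6, 7 and 8, so the epicardial level was 1.10, 0.847, 1.08 and 0.906 times that in CMs. For 6 globin genes this ratio lay between 0.735 and 1.17. Endothelial cells were higher than the epicardial cells in each library, with *Hbb-y* at 33, 7.99, 17.5 and 6.51 and *Hbb-bt* at 0.739, 0.107, 0.625 and 0.32. Both genes were lower in both *Tie2-cko* libraries in each of these 3 classes, and whether the genotype or the preparation of each library set it cannot be told apart.

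**Figure D4:**
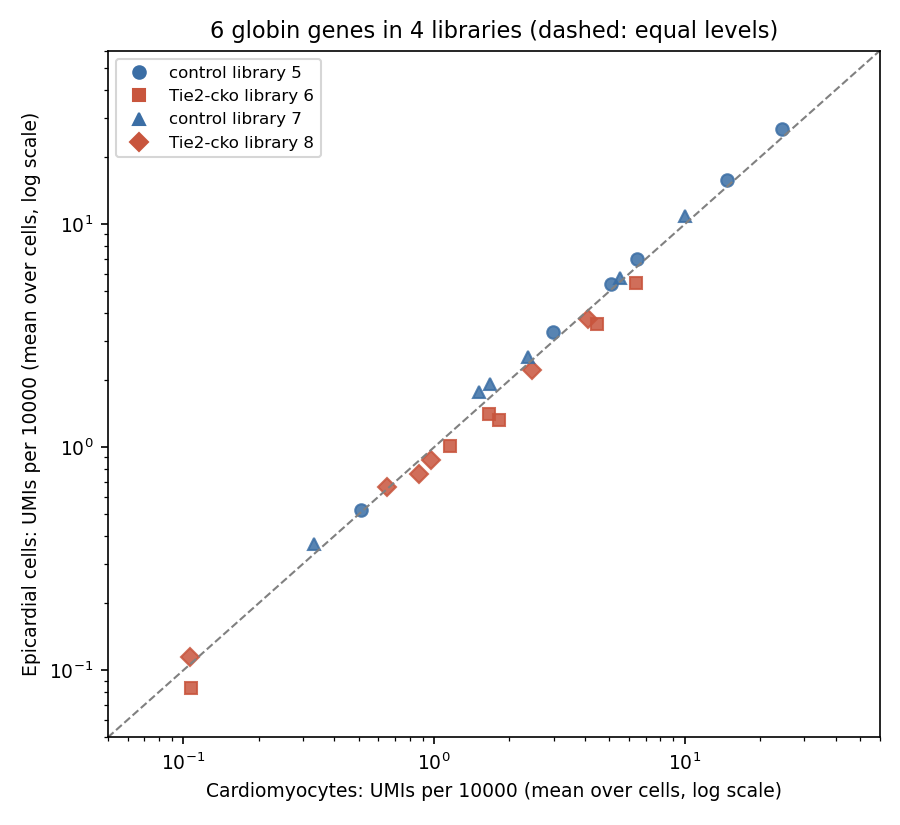
Levels of 6 globin genes in epicardial cells against CMs (mean over cells of UMIs per 10000, log axes), with 1 point for each gene and library and a dashed line of equal levels. All points lie near the line, with ratios from 0.735 to 1.17, and for each gene the *Tie2-cko* points are lower on the epicardial axis.

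Epicardial markers gave no call. Of those that took no part in the selection, 19 were tested and 0 passed in edgeR, with a median log2 fold change of 0.043 against 0.0033 over all genes tested. *Dcn* gave 0.04 ± 0.238 (log2, SE), *Aldh1a2* 0.09 ± 0.128 and *Krt7* -0.26 ± 0.152, each with an edgeR adjusted p of 1.00. The absence of a call does not show that the genotypes were alike. The epicardial markers that chose the members are given as levels only. *Wt1* was at 1.10, 1.45, 1.24 and 1.34 UMIs per 10000, higher in both *Tie2-cko* libraries, and *Tbx18* was at 1.77, 1.84, 1.64 and 1.85, higher in both as well by a small margin over library 5. In the counts summed per library the genotypes overlapped for *Wt1* and *Tbx18*. *Upk3b*, at 7.60, 7.27, 7.36 and 7.10, was lower in both *Tie2-cko* libraries, and the levels of *Upk1b* and *Tcf21* overlapped.

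Lists of signaling and structural genes were read by their counts. Beside 12.7% of all genes tested with both *Tie2-cko* libraries above both control libraries and 11.1% with both below, the matrix list had 8 genes above and 7 below of 49 tested, growth factors and receptors 9 and 2 of 46, the TGF-beta and BMP list 6 and 2 of 28, retinoic acid 5 and 0 of 15, Hippo 4 and 0 of 15 and Notch 1 and 0 of 10. Adhesion and polarity genes had 5 above and 0 below of 24, EMT and mesenchymal genes 3 and 2 of 22, hedgehog 4 and 0 of 9, TIE2 and FOXO 4 and 1 of 19 and hypoxia and glycolysis 3 and 1 of 13. No gene of these lists passed the adjusted threshold without a term for the library pairs. With that term, described next, *Lum* of the matrix list and *Bnip3* of the hypoxia list were called. The 30 Wnt genes tested had 9 above and 0 below (median log2 fold change 0.13). The 31 transcription factors tested that took no part in the selection had 11 and 0 (0.25), and the 14 immediate early and stress genes 6 and 0 (0.33). *Fos*, an immediate early gene, was at 0.602, 0.606, 0.595 and 1.25 UMIs per 10000, so that library 8 alone stood apart by level. The 52 G2M genes had 0 above and 6 below, and the 42 S phase genes 2 and 9. These counts describe the lists and were not tested.

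With a term for libraries 5 and 6 against libraries 7 and 8, a pairing read from the data and not from the labels, 25 genes were called (0.207% of those tested), 14 higher and 11 lower in *Tie2-cko*. Each pair holds 1 library of each genotype, so this fit has hardly any replication. Its p-values rest largely on the spread estimated across all genes. The lower genes were 7 globin genes, *Alad* of haem synthesis, the natriuretic peptide gene *Nppa*, *Mt1* and *Gm21887*. The 7 globin genes include *Hbb-y*, which the selection capped, so its call is not read as a result. The higher genes included the transcription factor genes *Barx1*, *Foxf1*, *Hoxa5*, *Hoxa4*, *Osr1*, *Hlx* and *Nr2f2*, together with *Wnt4*, *Cobl*, *Hmcn1*, *Lum*, *Dlk1* and *Bnip3*. *Barx1* and *Foxf1* mark the mesenchyme of the foregut. *Barx1* was at 0.206, 0.798, 0.0285 and 0.147 UMIs per 10000 in libraries 5, 6, 7 and 8, with a fold change of 2.01 ± 0.136 (log2, SE; edgeR with the term, adjusted p = 4.13e-07), against 1.97 ± 0.735 (adjusted p = 1.00) without it. *Wnt4* was at 0.102, 0.36, 0.0175 and 0.117 and gave 2.03 ± 0.189 with the term (edgeR adjusted p = 1.94e-05). Control library 5 and *Tie2-cko* library 8 lay close to each other for both genes. The genotypes overlapped in the *Barx1* levels per cell but not in the summed counts that were tested. Without the term, leaving out 1 library moved *Barx1* between 0.70 (without library 6) and 3.36 (without library 5) and *Wnt4* between 1.27 and 3.13, likewise without libraries 6 and 5.

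*Barx1* and *Foxf1* UMIs were found in a minority of members. A UMI of either gene was held by 62 (18.3%), 82 (42.3%), 23 (5.18%) and 52 (7.53%) members of libraries 5, 6, 7 and 8. Thinned to 5000 UMIs the shares were 6.80, 17.6, 1.36 and 3.07%, against 4.22, 5.10, 2.75 and 2.40% in CMs, so that library 6 had the widest gap to the CMs and library 7 lay below them. Barcodes in none of the classes were higher than the epicardial cells in each library, at 18.9, 28.0, 7.97 and 13.7%. The CMs were deeper, with medians of 28658.5, 50444.5, 21679 and 24177 UMIs before thinning. In library 6, members with either gene had *Wnt4* at 0.694 UMIs per 10000, *Osr1* at 0.386 and *Nr2f2* at 1.48, against 0.116, 0.0454 and 0.441 in the other members. *Wnt4* and *Nr2f2* were higher in such members in each library, but *Osr1* was listed at 0 against 0.0198 in library 8. Their *Upk3b* was at 6.44 against 7.88, *Tbx18* at 1.16 against 2.34 and *Dcn* at 2.57 against 4.26, although every member had to hold *Upk3b* or *Upk1b* by the selection. *Dcn* was also lower in such members in libraries 5, 7 and 8 (3.29 against 3.88, 4.08 against 5.06 and 4.29 against 5.63). Other genes differed in direction between libraries, with *Wt1* at 1.35 against 1.52 in library 6 but at 1.21 against 1.07, 1.38 against 1.23 and 1.57 against 1.32 in libraries 5, 7 and 8, and *Tbx18* at 1.94 against 1.62 in library 7. Without these members and with the same term, *Wnt4* (1.27 ± 0.313, edgeR adjusted p = 0.0106) and *Hoxa5* (1.95 ± 0.397, adjusted p = 0.000383) were still called, while *Osr1* (1.54 ± 0.450, adjusted p = 0.0726) and *Nr2f2* (0.29 ± 0.113, adjusted p = 0.396) were not. Both called genes were low there, *Wnt4* at 0.0527, 0.116, 0.0121 and 0.0631 and *Hoxa5* at 0.0443, 0.109, 0 and 0.0395 in libraries 5, 6, 7 and 8. *Hoxa5* was thus at 0 in control library 7, and control library 5 lay above *Tie2-cko* library 8. A lost call does not show that the change came from the members left out. The same fit also called CM genes lower, among them *Myl2* (log2 -0.78), *Tnni3* (-0.60) and *Actc1* (-0.56). *Actc1* in the members kept was at 4.76, 2.11, 5.30 and 4.84 in libraries 5, 6, 7 and 8, so library 6 alone stood apart. *Tnni3* over all members was at 0.551, 0.253, 0.828 and 0.723, and the genotypes overlapped for both genes. That fit called immediate early genes higher, among them *Btg2* (0.75), *Fos* (0.67) and *Egr1* (0.59). By level over all members, *Fos* stood apart in library 8 alone, as given above. Whether the members with either gene are epicardial cells of another region, mesothelium of the foregut or pairs of cells was not tested.

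*Tek*, which encodes the angiopoietin receptor TIE2 of endothelial cells, was low but present in the epicardial cells. Its level was 0.217, 0.191, 0.275 and 0.188 UMIs per 10000 in libraries 5, 6, 7 and 8, both *Tie2-cko* values lying below both control values. The log2 fold change was -0.29 ± 0.166 (SE, edgeR adjusted p = 1.00). Leaving out 1 library moved it between -0.45 (without library 5) and -0.11 (without library 7). CMs were at 0.00974 or below. In endothelial cells, here barcodes with at least 2 UMIs per 10000 of *Pecam1*, *Cdh5* and *Ecscr*, which include vessels besides the endocardium, *Tek* was at 0.753, 0.311, 1.18 and 0.221, a log2 fold change of -1.91 ± 0.23 that did not pass over all genes (edgeR adjusted p = 0.938). The change in epicardial cells differed from that in endothelial cells by 1.65 ± 0.17 (log2, SE; edgeR class by genotype term, adjusted p = 0.0248). *Tek* was the only gene called among 13910 tested (0.00719%), with 722 at an unadjusted p under 0.05 and the same single call by DESeq2. The cross deletes *Tek* in the endocardium, which the endothelial class includes, so a difference in this direction was set by the design. Against the mesenchyme with *Sox9* and *Postn*, 0 of 13009 genes (0%) were called by edgeR or DESeq2, with 318 and 39 at an unadjusted p under 0.05, and *Tek* gave 1.57 ± 0.267 (edgeR adjusted p = 1.00). Without library 8, 174 genes were called there, *Tek* among them (1.57, edgeR adjusted p = 0.0202). In that mesenchyme *Tek* was at 0.101, 0.043, 0.213 and 0.0369 in libraries 5, 6, 7 and 8.

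**Figure D5:**
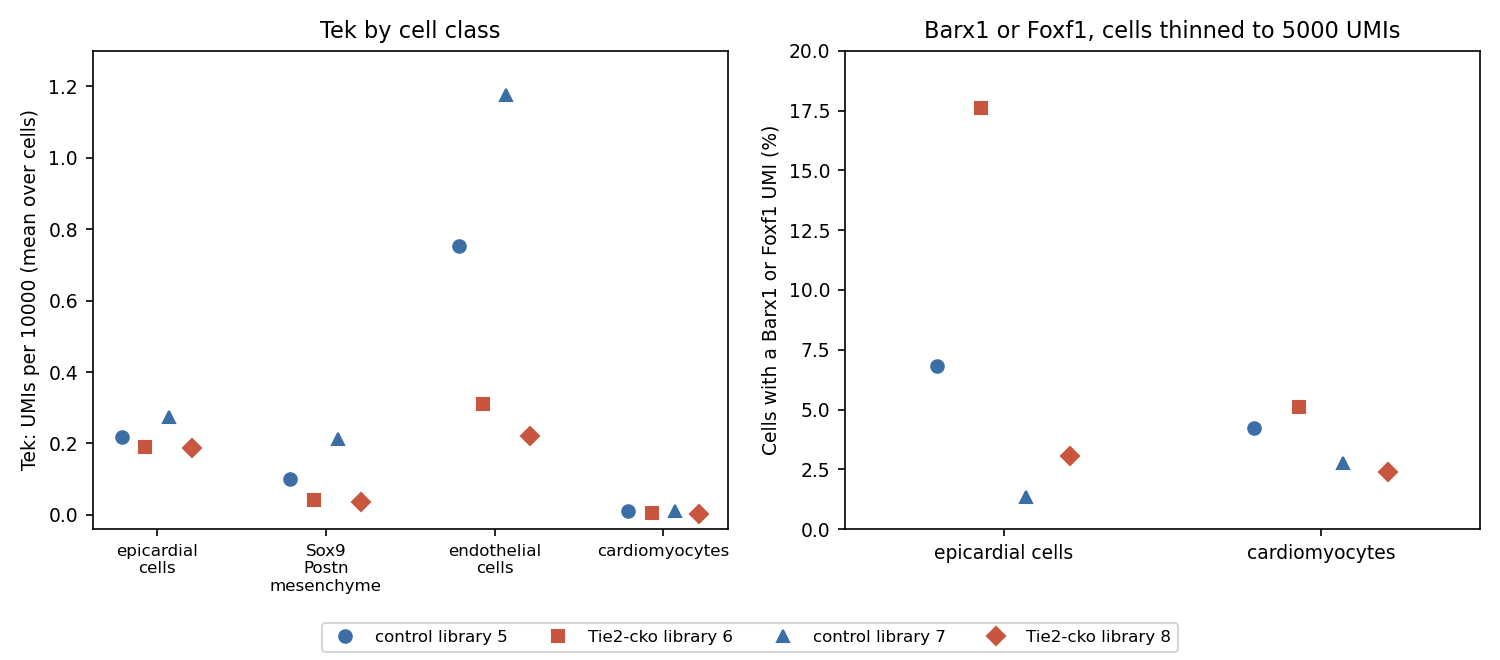
Left, *Tek* level (mean over cells of UMIs per 10000) in 4 cell classes, with 1 point for each library, and right, percentage of thinned epicardial cells and CMs with a UMI of *Barx1* or *Foxf1*. *Tek* is lower in *Tie2-cko* endothelial cells (0.311 and 0.221 against 0.753 and 1.18), and library 6 has the highest share with *Barx1* or *Foxf1*, 17.6%.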

How the data were processed

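Hearts at E10.5 were dissociated and profiled on the 10x Chromium Controller. The authors deposited unnormalized UMI counts that they had made with Cell Ranger (6.1.2 in the file headers, another version in the methods) on mm10 by the submitters' processing notes. No correction for free RNA and no doublet caller was applied here, and cells over 2 times the median UMI number were left out as an alternative. Libraries 5, 6, 7 and 8 held 259775540, 222270938, 169361996 and 210062861 UMIs over 18488, 8877, 11172 and 11899 barcodes.

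A level is the average, over the cells of 1 library, of a gene's UMIs per 10000. Counts were summed per library and tested with edgeR 4.0.16 (TMM, filterByExpr, quasi-likelihood test, Benjamini-Hochberg, threshold 0.05), SE being the absolute log2 fold change over the square root of F. Differences between classes used a class by genotype term with library as a block. Further tools were DESeq2 1.42.0, R 4.3.3 and Python 3.11.15. Fits were tested on simulated data. The rule for named genes was every gene of 29 lists, up to 15 called genes, the leading 20 and the most variable 20. Other genes, those called with the library term included, were named after their values were seen. The members and lists were chosen with earlier results of these data known.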

Additional observations from a re-analysis of the deposited data

Results flagged for a closer look

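The genotype effect on *Tek* differed between cell classes. *Tek* is the gene that the cross deletes in the endocardium, part of the endothelial class. The direction of this difference was therefore set by the design. The log2 fold change in epicardial cells was higher than that in endothelial cells by 1.65, and the class by genotype term passed the threshold (edgeR adjusted p = 0.0248). The fold change (log2, SE) was -1.91 ± 0.23 in endothelial cells (edgeR adjusted p = 0.938) and -0.29 ± 0.166 in epicardial cells (adjusted p = 1.00). In each of these classes both *Tie2-cko* libraries lay below both control libraries. With 2 libraries a genotype, no group was large enough to test for single outlying libraries.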

How the results depend on the processing

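*Hbb-bt* kept its direction in the 16 alternatives that tested it, between -2.56 and -2.12 on the log2 scale. The count of genes called was 1 as reported and 33 with no filter on low counts. It was 0 under the stricter exclusion of other cell types, without members of over 2 times the median UMI number, without the haemoglobin genes, and, in an alternative chosen after seeing the data, without members holding *Barx1* or *Foxf1*. It was 25 with the library term, and 79 with that term and without those members, of which 18 genes were called in both. The fits with the library term have hardly any replication, as each pair holds 1 library of each genotype. Leaving out 1 library gave 5 to 79 calls, the 79 without library 8. That leaves 1 *Tie2-cko* library, the lone sample being assumed to vary like the others.

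For the class by genotype term against endothelial cells, no filter gave 130 calls and leaving out 1 library 3 to 171, *Tek* among them each time. Against mesenchyme, leaving out 1 library gave 0 to 174. The difference in share ranged from -0.319 percentage points without library 8 to 3.05 without library 6. Leaving out 1 library also turned the sign of *Osr1* (-0.36 to 4.93), *Tbx18* (-0.096 to 0.14), *Tcf21* (-0.51 to 0.58), *Dcn* (-0.33 to 0.33) and *Myl7* (-0.41 to 0.023). The cause was not tested. Among the 20 genes followed, no other direction changed for a gene that took no part in the selection. The labels pair no libraries. Low counts limit *Foxf1*, with 3 UMIs in library 7.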
